A study of Mus musculus with 12 samples.

Results

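Gene expression was compared between 3T3-L1 cells that received inflammatory cytokines together with IL-4 and IL-13 and cells that received the inflammatory cytokines alone. 3T3-L1 is a mouse embryonic fibroblast line, given as wild type in the labels, and all cells were cultured for 24 hours. In the Inf condition, the medium held TNF-α, IL-17A, and IL-1β, at 20, 50, and 0.5 ng/mL in this order. In the IL-4/13 + Inf condition, it held the same 3 cytokines and, in addition, IL-4 and IL-13 at 50 ng/mL each. The libraries were chosen by the cytokines named in their count columns, and they are 6 of the 12 libraries of the series, with 3 in each condition. The other 6 libraries, 3 from control cells without cytokines and 3 from cells with IL-4/13 and no Inf, show where a gene stood in the absence of Inf and whether its response to IL-4/13 depended on Inf. The line stands in for dermal fibroblasts and is not itself from skin. The labels do not say whether the 3 libraries of a condition came from separate cultures, so p-values measure the spread between these libraries, which may be technical.

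IL-4 and IL-13 signal through receptors that share the IL-4Rα chain and activate the transcription factor STAT6, which switches on genes of the type 2 immune response and its own feedback inhibitors. TNF-α, IL-1β, and IL-17A act through NF-κB, MAP kinases, and C/EBP factors, and in fibroblasts they induce chemokines, acute phase proteins, matrix-degrading enzymes, and colony-stimulating factors. Fibroblasts in inflamed skin can receive both kinds of signal together, and the comparison asks which functions move when the type 2 signal is added to the inflammatory one.

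The deposited counts per gene were scaled to a common library total by edgeR's TMM method and are given as CPM, and 14810 of 56941 genes passed a filter on low counts. Total counts were 15178479 to 20775769 in the Inf libraries and 14953341 to 20477464 in the IL-4/13 + Inf libraries. The Inf libraries differed more among themselves than the IL-4/13 + Inf libraries did. The chi-square statistic per degree of freedom between pairs, which is 1 for counting noise alone, was 8.62 and 8.23 for the pairs with Inf replicate 3 and 4.66 for the other Inf pair, against 2.27 to 2.69 for the IL-4/13 + Inf pairs. Fibroblast markers were high in all 6 libraries, with summed levels of 12638 to 13654 CPM in Inf against 10623 to 10863 CPM in IL-4/13 + Inf over 10 markers. Of the 9 of these that were tested, 5 were downregulated and 0 were upregulated, against 7.00% and 7.55% of all tested genes. In bulk libraries, fewer cells of a type and less RNA per cell cannot be told apart. Of 12 macrophage markers, 7 had 5 or fewer counts in every library, and the sum was 48.0 to 61.3 CPM in Inf against 45.1 to 50.5 CPM in IL-4/13 + Inf. T cell, endothelial, and epithelial markers summed to 3.42 CPM or less in each of these libraries. All 13 mitochondrially encoded genes in the lists were at 0 counts in every library, and Icam1 had at most 3 counts, so nothing is said of these genes.

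Genes were called when the adjusted p of edgeR's quasi-likelihood test (Benjamini-Hochberg) was below 0.05 and the log2 fold change lay beyond 0.25. Adding IL-4/13 to Inf upregulated 1118 genes (7.55% of those tested) and downregulated 1037 (7.00%), so 14.6% of tested genes were called in all. Most changes were small. Beyond a log2 fold change of 0.5, 350 genes rose and 404 fell, beyond 1 the counts were 133 and 105, beyond 2 they were 34 and 9, and beyond 3 they were 12 and 0. The large changes were thus mainly rises, while changes of moderate size were divided more evenly. The median log2 fold change of all tested genes was −0.01, so the scaling left the typical gene near 0. The genes named singly were the largest rises and falls, up to 3 of each in a function list, and a set of key genes. All but the key genes had at least 5 CPM in 1 condition and no overlap between conditions. Genes at 3 or fewer counts in 1 condition, and those marked as named after their values were seen, did not have to meet these conditions. In 5201 genes (35.1%) the 3 libraries of one condition all lay above or all below the 3 of the other.

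Genes were grouped by function in 43 lists with 1603 distinct names, of which 1349 were tested. Among the tested members, 207 were upregulated and 211 were downregulated (31.0% together, against 14.6% of all tested genes), and 1737 called genes were in no list. The lists were chosen for functions that cytokines are known to move in fibroblasts, and with earlier results of these data known. Their joint share is therefore partly set by that choice and is not compared further with the background. Shares of all tested genes beside single lists are given for scale only. Several functions moved mainly in 1 direction. Called members were mostly rises in DNA replication, mitosis, and the unfolded protein and integrated stress response, for example, and mostly falls in collagens, matrix glycoproteins, antimicrobial genes, adipogenic genes, glycolysis and hypoxia genes, metallothionein and iron genes, and NRF2 targets. In others, such as the acute phase proteins, matrix proteases, growth factors, and IL-6 family signalling, rises and falls stood side by side.

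**Figure D1:**
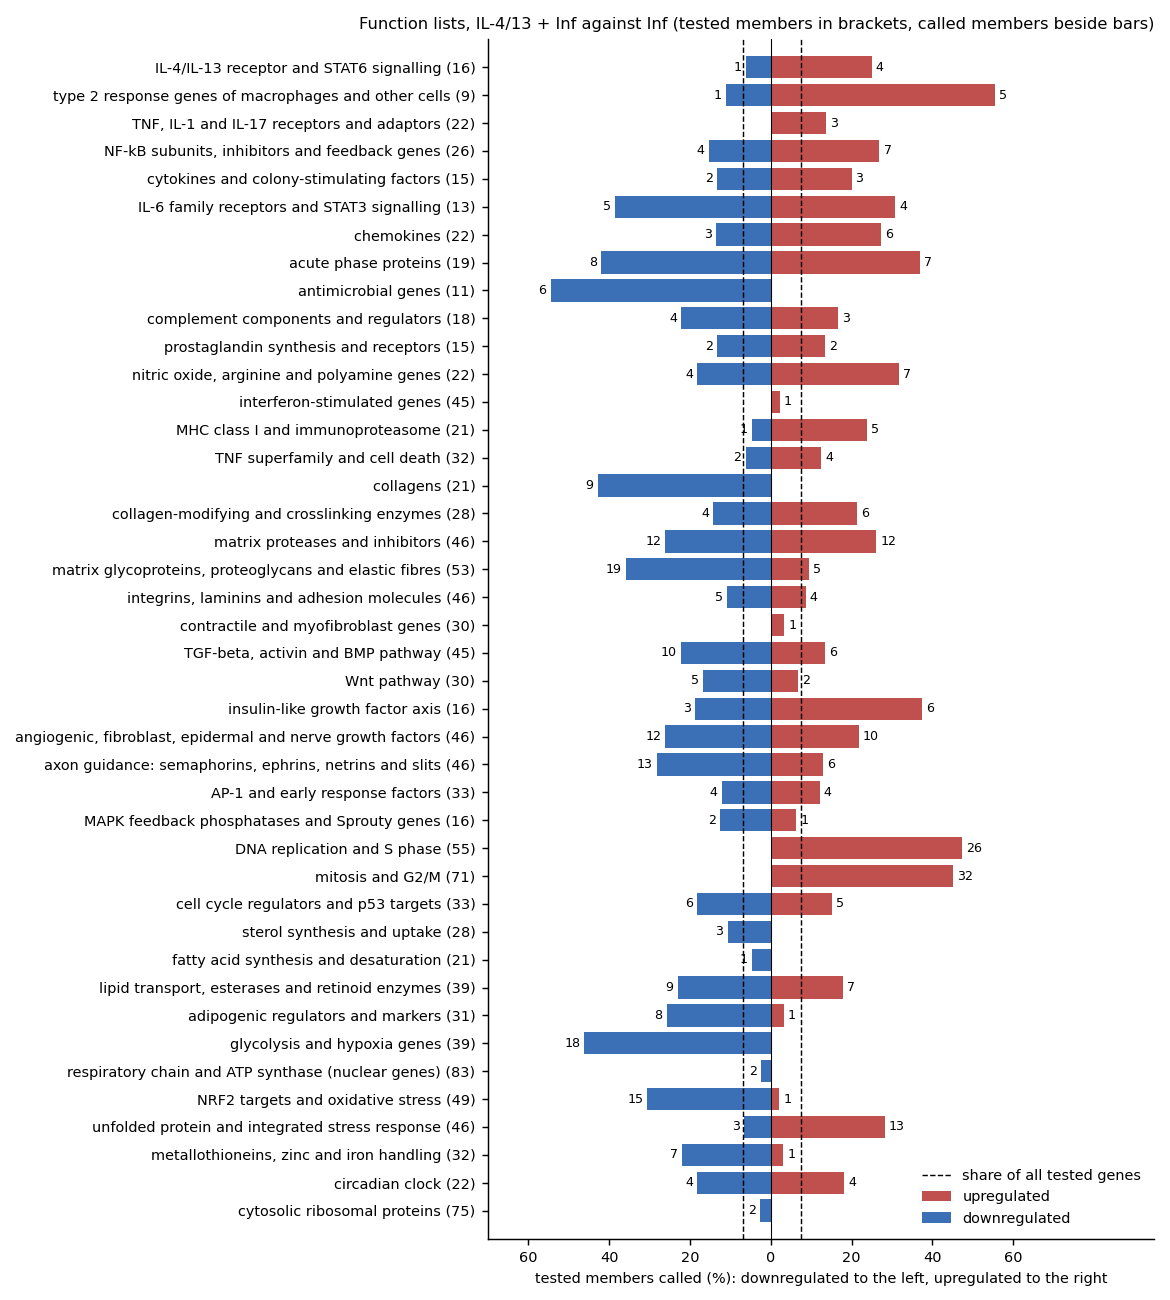
Share of the tested members of each function list that was upregulated (red, to the right) or downregulated (blue, to the left) in IL-4/13 + Inf against Inf, in percent, with counts beside the bars, tested members in brackets, and dashed lines at the shares of all tested genes (7.55% and 7.00%). DNA replication with 26 of 55 members and mitosis with 32 of 71 have bars to the right alone, and glycolysis and hypoxia genes with 18 of 39 and collagens with 9 of 21 have bars to the left alone.

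Promoter sequence is shown for 2 of the genes with the largest rises, since STAT factors bind palindromic sites with the arms TTC and GAA. Edn1 was taken by rule, as the largest-rise gene whose promoter holds these arms 4 bases apart, the spacing that STAT6 prefers, and Cish, a classic STAT-induced gene, was added after its values were seen because its promoter holds them 3 bases apart (TTCNNNGAA), the spacing of other STAT factors. Both sequences run 250 bases before to 50 bases after the annotated start and were taken from RefSeq (GRCm38.p6, another build than the GRCm39 of the counts). Capitals mark each whole match, the arms together with the bases between them. The search pattern reads the same on both strands, but the matched bases do not. The matches do not overlap other searched motifs.
Edn1, chr13:42301226-42301525, plus strand: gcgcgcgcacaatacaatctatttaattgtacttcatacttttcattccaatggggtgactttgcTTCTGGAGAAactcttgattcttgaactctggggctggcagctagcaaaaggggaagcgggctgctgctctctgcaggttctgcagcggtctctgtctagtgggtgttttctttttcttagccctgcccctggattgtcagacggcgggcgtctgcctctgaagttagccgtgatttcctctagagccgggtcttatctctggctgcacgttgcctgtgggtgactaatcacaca
Cish, chr9:107296409-107296708, plus strand: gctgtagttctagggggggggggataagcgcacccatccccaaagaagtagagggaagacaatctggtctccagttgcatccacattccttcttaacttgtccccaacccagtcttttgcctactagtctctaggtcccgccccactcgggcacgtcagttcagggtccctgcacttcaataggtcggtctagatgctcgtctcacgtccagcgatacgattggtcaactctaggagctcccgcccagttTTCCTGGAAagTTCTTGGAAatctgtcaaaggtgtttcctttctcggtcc

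In Edn1 the match starts 185 bases before the annotated start. The first match in Cish starts at the annotated start and the second follows 11 bases downstream. The arms stood 4 bases apart in 6.986% of all 27025 promoters in the table and 3 bases apart in 8.466%. Of the 12 genes with the largest rises, 10 had a promoter in the table, of which 1 held the wider and 1 the narrower spacing. Of the 12 largest falls, 8 had one and 0 held either. A match is a string of letters and was not tested as a binding site.

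The largest rises were found in genes of quite different functions. Rnf19b, an E3 ubiquitin ligase, had 155, 146, and 156 CPM in the Inf libraries and 771, 744, and 754 CPM in the IL-4/13 + Inf libraries (log2 fold change 2.31, SE 0.05, adjusted p = 3.6e-25, edgeR). Cish, which encodes a feedback inhibitor of cytokine receptor signalling, had 6.85, 6.09, and 5.33 CPM in Inf against 33.1, 32.3, and 32.8 CPM in IL-4/13 + Inf (log2 fold change 2.43, SE 0.13, adjusted p = 1.2e-13, edgeR). The libraries of each condition lay close together for both genes. Edn1, the precursor of the vasoconstrictor peptide endothelin-1, had 3.12, 4.14, and 4.55 CPM in Inf against 24.99, 26.03, and 19.6 CPM in IL-4/13 + Inf (log2 fold change 2.57, SE 0.14, adjusted p = 9.6e-14, edgeR). Ces1g, a carboxylesterase that hydrolyzes lipid esters, had 6.05, 7.31, and 8.43 CPM in Inf against 59.01, 64.98, and 65.7 CPM in IL-4/13 + Inf (log2 fold change 3.11, SE 0.10, adjusted p = 1.1e-20, edgeR). Even the highest Inf library was several times below the lowest IL-4/13 + Inf library in both. Aif1l, an actin-binding protein, had 16.3, 20.2, and 16.7 CPM in Inf against 101, 95.5, and 90.8 CPM in IL-4/13 + Inf. Without Inf, the means of Aif1l were 21.98 CPM in control and 125 CPM with IL-4/13, and those of Edn1 were 7.67 and 38.5 CPM.

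The other large rises were Serpina3n (log2 fold change 3.53), Chrdl1, a secreted BMP antagonist (2.96), Abca4, a retinoid transporter (2.81), Ptpn5, a tyrosine phosphatase (2.59), Blnk, an adaptor known from B cell receptor signalling (2.54), Ccl11, the eosinophil attractant eotaxin-1 (2.36), and Nts, the precursor of neurotensin (2.24). Of the 12 largest rises, 11 were also upregulated by IL-4/13 without Inf, where 5.35% of tested genes were called and 2.78% were upregulated. Blnk was the exception. It had 1.66, 0.974, and 1.21 CPM in Inf against 7.69, 6.46, and 7.96 CPM in IL-4/13 + Inf, and means of 0.197 CPM in control and 0.064 CPM with IL-4/13 alone, so a clear level was reached only in the condition with all cytokines. The test of the difference between the responses, the interaction term of the same fit, called 461 of all tested genes (3.11%), 225 (1.52%) with a higher and 236 (1.59%) with a lower response in the presence of Inf. It called Blnk (difference 4.09 on the log2 scale, adjusted p = 0.0084, edgeR) and no other of the 12 largest rises.

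Among the largest falls, Lbp, which encodes lipopolysaccharide-binding protein, had 9.44, 6.62, and 5.82 CPM in Inf against 0.893, 1.74, and 0.472 CPM in IL-4/13 + Inf (log2 fold change −2.77, SE 0.31, adjusted p = 1.7e-07, edgeR). Lbp was near 0 without Inf, with means of 0.122 and 0.206 CPM. Ccn5, a matricellular protein of the CCN family, had 30.4, 29.6, and 28.8 CPM in Inf against 10.02, 10.1, and 8.30 CPM in IL-4/13 + Inf (log2 fold change −1.64, SE 0.11, adjusted p = 8.6e-13, edgeR). Angpt1, the ligand of the endothelial receptor Tie2, had 23.8, 21.5, and 23.6 CPM in Inf against 6.79, 8.60, and 7.83 CPM in IL-4/13 + Inf (log2 fold change −1.57, SE 0.11, adjusted p = 1.3e-12, edgeR). For both, the 3 IL-4/13 + Inf libraries lay below the mean of every other condition except that Ccn5 was lower still with IL-4/13 alone (7.20 CPM). Abca1, which exports cholesterol to apolipoproteins, had 55.9, 52.99, and 42.6 CPM in Inf, with replicate 3 lowest, and 22.1, 21.2, and 20.9 CPM in IL-4/13 + Inf. Prss23, a secreted serine protease, had 70.3, 80.6, and 78.3 CPM in Inf against 31.1, 31.6, and 29.6 CPM in IL-4/13 + Inf. The remaining 7 were Ccl20 (log2 fold change −1.54), Pid1 (−1.40), Slc22a23 (−1.27), Islr (−1.24), Nrep (−1.24), Sned1 (−1.18), and Cd33 (−1.17). Of the 12 largest falls, 6 were also downregulated by IL-4/13 alone, where 2.57% of tested genes were. In 7, namely Lbp, Ccn5, Angpt1, Pid1, Prss23, Slc22a23, and Abca1, the interaction was called. In each, the log2 change was more negative with Inf than without it. These genes were picked by their fall with Inf, which is part of the interaction.

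**Figure D2:**
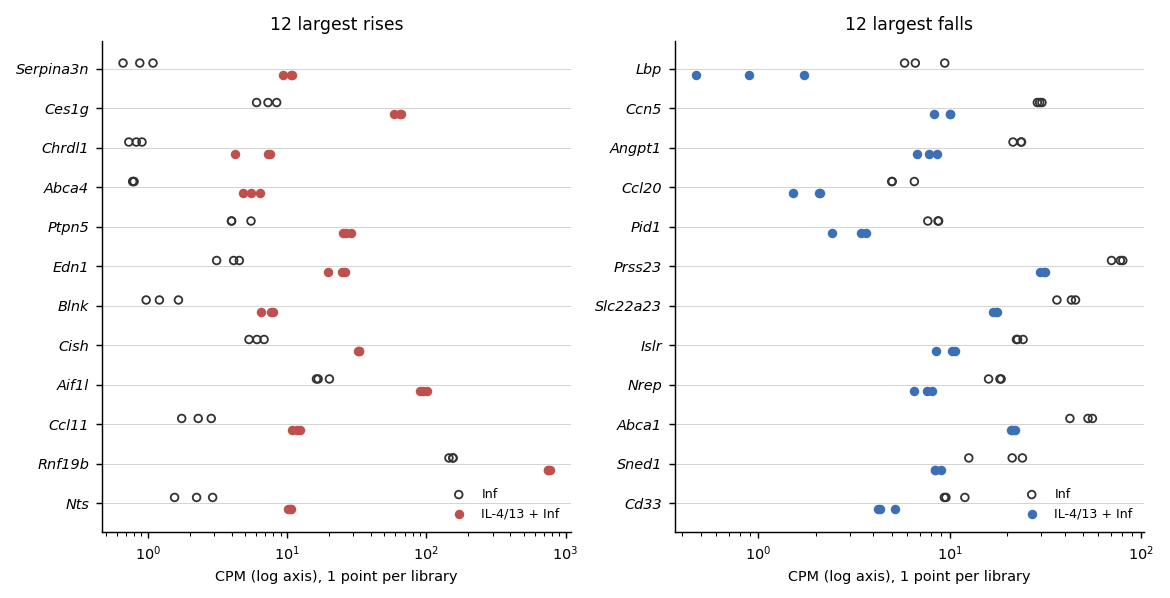
Levels of the 12 genes with the largest rises and the 12 with the largest falls, in CPM on a log axis, with 1 point per library (open, Inf; filled, IL-4/13 + Inf). The libraries of the conditions do not overlap in any of these genes, which the rule for naming them required. Lbp, the largest fall, drops from 5.82 to 9.44 CPM in Inf to 0.472 to 1.74 CPM in IL-4/13 + Inf.

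The type 2 receptors responded unevenly. Among 16 tested genes of IL-4/IL-13 receptors and STAT6 signalling, 4 were upregulated and 1 was downregulated. Il13ra2, the decoy receptor that binds IL-13, had 59.9, 52.8, and 60.1 CPM in Inf against 218, 221, and 232 CPM in IL-4/13 + Inf (log2 fold change 1.96, SE 0.06, adjusted p = 1.1e-20, edgeR). Its means were 0.38 CPM in control and 6.78 CPM with IL-4/13 alone, so most of the level was seen only where Inf was present. The receptor chains that carry the signal were not called. Il4ra had 89.6, 87.8, and 82.1 CPM in Inf against 71.3, 71.8, and 75.3 CPM in IL-4/13 + Inf (log2 fold change −0.25, SE 0.06, adjusted p = 0.0012, edgeR), just inside the fold threshold, and Il13ra1 had a log2 fold change of −0.23 (adjusted p = 0.0011, edgeR). Both were lower in each IL-4/13 + Inf library than in any Inf library. Stat6 was at 101, 105, and 109 CPM in Inf against 107, 105, and 102 CPM in IL-4/13 + Inf, and these overlapped. Of the feedback inhibitors, Socs1 was upregulated from 20.3, 19.7, and 20.1 CPM to 37.7, 36.9, and 37.05 CPM, and Socs2 was downregulated with a log2 fold change of −0.75. Among 9 tested genes known as type 2 response genes of macrophages and other cells, 5 rose and 1 fell. Ch25h, which makes an antiviral oxysterol, went from 13.6, 11.6, and 12.6 to 30.7, 27.3, and 25.9 CPM, and the chemokine gene Ccl17 from 9.90, 7.40, and 12.2 to 16.4, 17.1, and 17.9 CPM. Postn, a matrix protein that IL-13 induces in many cells, fell from 135, 135, and 128 to 84.999, 87.1, and 85.3 CPM. Arg1, Retnla, and Chil3, markers of type 2 macrophages, had at most 2 counts in any library and were not tested.

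Of 22 tested genes of TNF, IL-1, and IL-17 receptors and their adaptors, 3 were upregulated and 0 were downregulated, a share (13.6%) near the 14.6% of all tested genes. Il1rap, the accessory chain shared by receptors of the IL-1 family, had 168, 165, and 155 CPM in Inf against 249, 238, and 233 CPM in IL-4/13 + Inf (log2 fold change 0.56, SE 0.05, adjusted p = 4.4e-10, edgeR). Il1r1, the receptor for IL-1, had 106, 105, and 94.4 CPM in Inf against 139, 139, and 149 CPM in IL-4/13 + Inf. The third was Il1rn, the secreted IL-1 receptor antagonist, with 6.71, 6.28, and 5.64 CPM in Inf against 8.88, 8.99, and 9.92 CPM in IL-4/13 + Inf. Each of the 3 was higher in every IL-4/13 + Inf library than in any Inf library, which the rule for naming them required. Il1rl1, the receptor for IL-33, was singled out after its values were seen, with 832, 912, and 901 CPM in Inf against 1958, 1948, and 1883 CPM in IL-4/13 + Inf (log2 fold change 1.13, SE 0.04, adjusted p = 6.4e-19, edgeR).

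NF-κB genes moved in both directions, with 7 of 26 tested members up and 4 down. Nfkb1, the p105 and p50 subunit, had 471, 466, and 459 CPM in Inf against 855, 853, and 863 CPM in IL-4/13 + Inf (log2 fold change 0.88, SE 0.04, adjusted p = 3.1e-16, edgeR). The libraries of each condition were nearly equal, and means without Inf were 196 CPM in control and 449.8 CPM with IL-4/13. Tnip3, an inhibitor of NF-κB signalling, rose from 20.2, 19.8, and 20.9 to 33.3, 29.5, and 29.5 CPM, and Traf1, an adaptor of TNF receptors, from 10.9, 9.40, and 11.3 to 12.5, 15.3, and 16.1 CPM. Genes that fell included the atypical inhibitor of κB proteins Nfkbiz (log2 fold change −0.43) and Bcl3 (−0.34) and the feedback deubiquitinase Tnfaip3 (−0.42). Nfkbia, which encodes the classical inhibitor IκBα, was at 282, 249, and 279 CPM in Inf against 259.7, 262, and 259 CPM in IL-4/13 + Inf, and these overlapped (log2 fold change −0.05, SE 0.05, adjusted p = 0.53, edgeR). Without Inf, IL-4/13 upregulated 10 of the 26 and downregulated 0, against 2.78% and 2.57% of all tested genes. The interaction was lower with Inf in 8 and higher in 0, against 1.59% and 1.52%. Without IL-4/13 + Inf replicate 2, 4 members were upregulated.

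Secreted cytokines changed modestly. Of 15 tested cytokines and colony-stimulating factors, 3 rose and 2 fell. Csf2, which encodes GM-CSF, went from 25.9, 22.2, and 26.01 to 36.6, 34.4, and 35.4 CPM, Lif, a cytokine of the IL-6 family, from 117, 113, and 113 to 155, 159, and 162 CPM, and Tslp, an epithelial alarmin, from 1.93, 1.75, and 2.24 to 3.42, 3.32, and 2.70 CPM. The call of Tslp was lost with DESeq2 and in 7 of the omissions of a single library (log2 fold change 0.60 to 0.68 among these). It was also lost without a filter and with a replicate block over either the 12 or the 6 libraries. The falls were in Il1a, from 56.8, 54.7, and 57.5 to 45.7, 39.6, and 42.9 CPM, and Clcf1, from 36.3, 36.3, and 32.4 to 28.6, 28.3, and 30.6 CPM. Il6 overlapped between conditions (109, 105, and 117 CPM in Inf against 123, 126, and 117 CPM in IL-4/13 + Inf), as did Csf3, the granulocyte factor G-CSF. Il33 was not called (log2 fold change −0.50, adjusted p = 0.11, edgeR).

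In the receptors of the IL-6 family and STAT3 signalling, 4 of 13 tested genes rose and 5 fell, and receptor chains stood on both sides. Il6st, the gp130 chain shared by the family, had 841, 881, and 741 CPM in Inf against 1137, 1161, and 1145 CPM in IL-4/13 + Inf (log2 fold change 0.48, SE 0.05, adjusted p = 5.2e-09, edgeR). Lifr, which pairs with gp130 to bind LIF, rose from 51.2, 51.2, and 45.95 to 63.9, 65.3, and 63.4 CPM. Osmr, which pairs with gp130 to bind oncostatin M, fell from 346, 336, and 299 to 259, 263, and 274 CPM. Inf replicate 3 was the lowest Inf library for all of these chains. The kinase genes were also divided, since Pim3 rose (log2 fold change 0.66) and Pim1 fell (−0.40). The count of falls was 2 without Inf replicate 2 or without IL-4/13 + Inf replicate 2, and 3 without Inf replicate 1 or IL-4/13 + Inf replicate 1.

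Of 22 tested chemokines, 6 rose and 3 fell (40.9% together, against 14.6% of all tested genes). Among those not named above, Cxcl3, a ligand of the neutrophil receptor CXCR2, rose from 5.38, 4.92, and 5.09 to 8.78, 10.5, and 11 CPM. Cxcl12, the ligand of CXCR4 and a constitutive product of fibroblasts, had 332, 358, and 339 CPM in Inf against 195, 201, and 195 CPM in IL-4/13 + Inf (log2 fold change −0.80, SE 0.05, adjusted p = 2.8e-14, edgeR). Ccl3 fell from 20.004, 18.3, and 21.2 to 14.8, 14.3, and 15.8 CPM. Unlike Cxcl3 and Ccl3, which were at or near 0 without Inf, Cxcl12 had means of 341 CPM in control and 321 CPM with IL-4/13 alone, and its interaction was −0.72 (adjusted p = 7.4e-09, edgeR).

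Acute phase proteins, plasma proteins that rise in inflammation, were divided, with 7 of 19 tested members up and 8 down. The rises were in the Serpina3 genes, relatives of human alpha-1-antichymotrypsin, of which 6 were tested and 6 were upregulated, and in Apoe, which is named after its values were seen. Serpina3h had 9.24, 10.6, and 9.34 CPM in Inf against 38.2, 40.7, and 37.9 CPM in IL-4/13 + Inf (log2 fold change 1.99, SE 0.11, adjusted p = 1.6e-14, edgeR), and Serpina3g had 13.9, 16.6, and 17.8 and 51.2, 53.01, and 57.6 CPM. Each of their IL-4/13 + Inf libraries was above every Inf library, which the rule for naming them required. The genes of this cluster are near-identical copies. How reads shared between copies were counted is not given in the sources used here, so the division among them is uncertain. The falls included serum amyloid A genes, Lbp, Lcn2, and the hemoglobin scavenger haptoglobin. Saa3 had 5628, 4829.5, and 5276 CPM in Inf against 2214, 2218, and 2644 CPM in IL-4/13 + Inf (log2 fold change −1.15, SE 0.09, adjusted p = 5.9e-06, edgeR), and Hp had 331, 289, and 280.4 and 124, 139, and 147 CPM. Summed over the list, the level was 8696, 7805, and 8255 CPM in Inf against 4574, 4607, and 5109 CPM in IL-4/13 + Inf. Saa3 alone made up most of the sum in Inf and most of the difference, so the sum does not describe the list as a whole. The count of falls was 5 without Inf replicate 1 or without IL-4/13 + Inf replicate 2.

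Antimicrobial genes fell, with 0 of 11 tested members up and 6 down (median log2 fold change −0.42, against −0.01 for all tested genes). Lcn2, which sequesters bacterial iron carriers, had 1290.2, 1193, and 1272 CPM in Inf against 925, 914, and 972 CPM in IL-4/13 + Inf (log2 fold change −0.42, SE 0.05, adjusted p = 8.6e-08, edgeR). Slpi, a protease inhibitor with antimicrobial activity, went from 217, 208, and 241 to 176, 169.9, and 182 CPM and Camp, the cathelicidin precursor, from 3.52, 3.02, and 2.42 to 0.843, 1.29, and 1.15 CPM. Nos2, the inducible nitric oxide synthase, had 416, 354, and 331 CPM in Inf, where replicate 1 was highest, and 232, 242, and 249 CPM in IL-4/13 + Inf. Of the same list, Inf had upregulated 9 members against control, a comparison that uses the same Inf libraries and in which 31.6% of all tested genes were called, 16.3% up and 15.3% down.

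Of 18 tested complement genes, 3 rose and 4 fell. C3, the central component, rose from 833, 745, and 644 to 1198, 1222, and 1248 CPM, and Masp1, a protease that starts the lectin pathway, from 19.2, 22.1, and 21.6 to 78.2, 77.3, and 70.3 CPM (log2 fold change 1.84, SE 0.07, adjusted p = 1.4e-18, edgeR). C1s1 and C1ra, proteases that start the classical pathway, fell with log2 fold changes of −0.75 and −0.37, and Serping1, their inhibitor, fell from 26.98, 22.7, and 19.6 to 12.5, 11.9, and 13.8 CPM. Cfb fell from 1.46, 1.36, and 1.58 to 0.397, 0.562, and 0.27 CPM, but it overlaps C2 in the genome. Of 15 tested prostaglandin genes, 2 rose and 2 fell (26.7% together, against 14.6% of all tested genes). Ptgs2, the inducible cyclooxygenase, had 418, 367, and 353 CPM in Inf against 698, 702, and 748 CPM in IL-4/13 + Inf (log2 fold change 0.92, SE 0.05, adjusted p = 1.7e-14, edgeR), while Ptgis, the prostacyclin synthase, rose with a log2 fold change of 0.27, and Ptgr1, a reductase that inactivates prostaglandins, fell (−0.47). Ptgfr, the receptor for prostaglandin F2α, fell from 21.1, 21.6, and 23.2 to 10.5, 10.01, and 10.3 CPM. Without Inf, Ptgs2 had means of 137 and 179.7 CPM, and the interaction was called (0.53, adjusted p = 1.5e-05, edgeR).

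Arginine enters nitric oxide synthesis and polyamine synthesis. Of 22 tested genes of these routes, 7 rose and 4 fell. Slc7a2, the cytokine-inducible arginine transporter, rose from 148, 146, and 120.1 to 212, 217, and 219 CPM. Srm and Sms, which make the polyamines spermidine and spermine, rose from 92.8, 94.9, and 98.8 to 130, 139, and 137 CPM and from 16.3, 18.3, and 15.5 to 26.5, 21.6, and 23.4 CPM. The transporter and both synthases were higher in each IL-4/13 + Inf library than in any Inf library, which the rule for naming them required. Besides Nos2, the falls included Ddah2, which removes endogenous inhibitors of nitric oxide synthases, and Smox, which oxidizes spermine (log2 fold changes −0.47 and −0.37). Without IL-4/13 + Inf replicate 1, 2 members fell.

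The interferon-stimulated genes were nearly all not called, with 1 of 45 tested members upregulated and 0 downregulated (median log2 fold change 0.15), although Inf had upregulated 42 of them against control (16.3% of all tested genes) in a comparison that shares the Inf libraries. Ifit2 rose from 93.8, 82.4, and 82.03 to 111, 114, and 113 CPM. Inf replicate 2 was the lowest library for Isg15 (222, 141, and 212 CPM in Inf against 203, 229.8, and 190.4 CPM in IL-4/13 + Inf) and Ifit1 (298, 179, and 252 CPM in Inf against 286, 288, and 278 CPM in IL-4/13 + Inf). Their sum over the list was 4184, 3051, and 3823 CPM in Inf against 4099, 4339, and 3804 CPM in IL-4/13 + Inf. Of 21 tested genes of MHC class I and the immunoproteasome, 5 rose and 1 fell (28.6% together, against 14.6% of all tested genes). The rises included Erap1, which trims peptides for presentation (log2 fold change 0.43), Psmb10, an immunoproteasome subunit (0.38), and Tap1, a peptide transporter (0.38). The fall was in H2-T23 (−0.64), one of a family of near-identical genes, and B2m, the light chain of class I molecules, was not called (826, 786, and 959 CPM in Inf against 839, 831, and 798 CPM in IL-4/13 + Inf). Without Inf replicate 2, the count of rises was 3. Of 32 tested TNF superfamily and cell death genes, 4 rose and 2 fell, a share (18.8%) not far from the 14.6% of all tested genes. Among them were Tnfrsf21 (0.39), Tnfrsf12a (0.26), and Casp12 (−0.25), and without Inf replicate 1 the counts were 1 and 1. Without IL-4/13 + Inf replicate 1 there were 2 rises, and without IL-4/13 + Inf replicate 3 there were 0 falls.

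**Figure D3:**
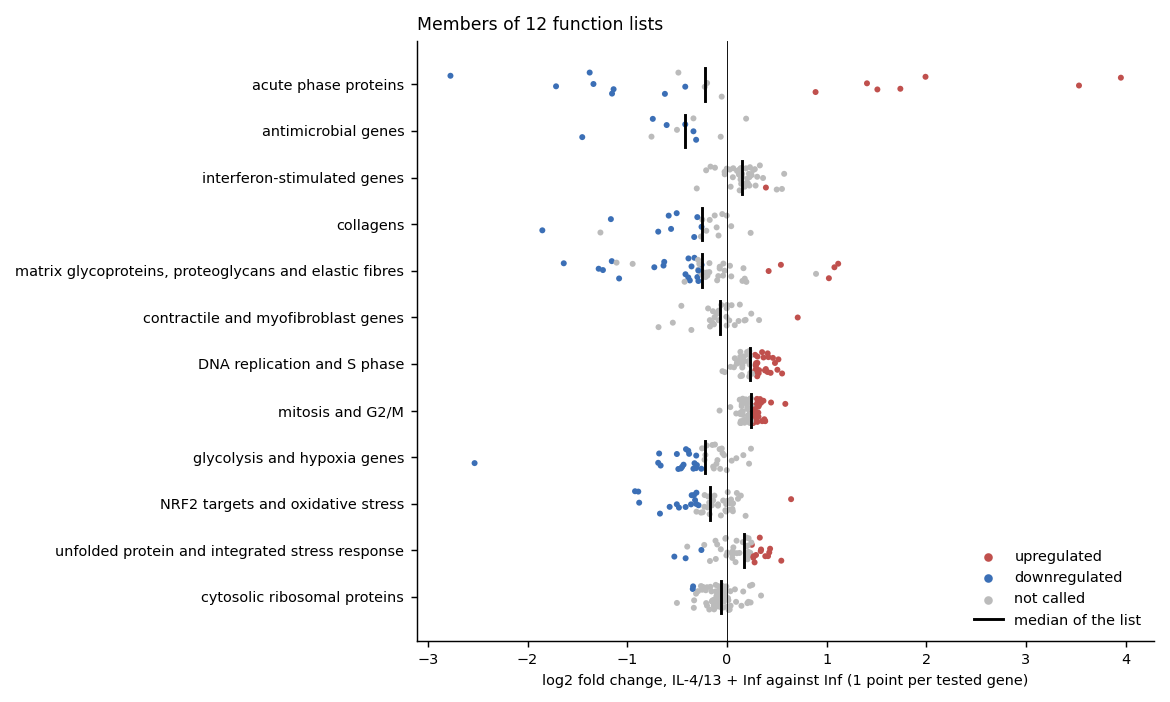
Log2 fold change of every tested member of 12 function lists in IL-4/13 + Inf against Inf, with 1 point per gene, red where upregulated, blue where downregulated, and grey where not called, and a bar at the median of each list. Acute phase proteins spread from −2.77 for Lbp to 3.53 for Serpina3n, with Serpina3c, at 3 or fewer counts in Inf, plotted above it, whereas nearly all members of DNA replication and mitosis lie close together at small positive values, and those of the unfolded protein and integrated stress response range from −0.53 to 0.55.

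Of 21 tested collagen genes, 0 were upregulated and 9 were downregulated with IL-4/13 (median log2 fold change −0.255). Col3a1, a major fibrillar collagen of skin, had 1807, 1794, and 1562 CPM in Inf against 1206, 1208, and 1228 CPM in IL-4/13 + Inf (log2 fold change −0.50, SE 0.05, adjusted p = 7.2e-09, edgeR). Col12a1, which lies along collagen fibrils, went from 76.8, 68.7, and 49.2 to 25.7, 30.6, and 30.7 CPM, and Col5a3, a chain of the fibril-nucleating collagen V, from 268, 241, and 202 to 146, 152, and 143 CPM. Inf replicate 3 was the lowest Inf library for these genes and was still above all IL-4/13 + Inf libraries, which the rule for naming required of Col12a1 and Col5a3. Col6a3, a chain of the microfibrillar collagen VI, went from 137, 130.3, and 91.1 to 84.2, 83.7, and 70.3 CPM, and its call was lost when any one of several libraries was left out (log2 fold change −0.63 to −0.48). The chains of collagen I were not called, with 2590, 2633, and 2255 CPM in Inf against 2109.9, 2135, and 1998 CPM in IL-4/13 + Inf for Col1a1 (log2 fold change −0.26, SE 0.09, adjusted p = 0.068, edgeR) and a log2 fold change of −0.25 for Col1a2. Summed over the list, collagen transcripts were 14360, 14190, and 12260 CPM in Inf against 11480, 11610, and 11340 CPM in IL-4/13 + Inf. The count of falls was 6 without Inf replicate 1 and 13 without Inf replicate 3. IL-4/13 without Inf also downregulated 9 of these genes and upregulated 0 (2.57% and 2.78% of all tested genes). The interaction was called for 1 of them, with the lower response under Inf (1.59% of all tested genes).

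Of 28 tested collagen-modifying and crosslinking genes, 6 rose and 4 fell. Adamts14, a procollagen N-proteinase, had 35.8, 35.4, and 30.7 CPM in Inf against 86.2, 86.1, and 80.8 CPM in IL-4/13 + Inf (log2 fold change 1.31, SE 0.07, adjusted p = 1.3e-14, edgeR), while its relative Adamts2 fell with a log2 fold change of −0.49. P3h2, a prolyl 3-hydroxylase, and Pcolce2, an enhancer of procollagen C-proteinase, rose from low levels (1.52 and 1.45 on the log2 scale). P4ha2 and P4ha3, alpha subunits of prolyl 4-hydroxylase, fell (−0.40 and −0.60). Adamts14 and Adamts2, relatives with the same activity, thus moved in opposite directions.

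Matrix glycoproteins, proteoglycans, and elastic fibre genes fell more often than they rose, with 19 of 53 tested members down and 5 up. Aspn, which encodes the proteoglycan asporin, had 48.3, 46.999, and 44.98 CPM in Inf against 18.1, 19, and 26.7 CPM in IL-4/13 + Inf (log2 fold change −1.16, SE 0.13, adjusted p = 3.5e-05, edgeR). Srpx2, a secreted sushi-repeat protein, rose from 71.2, 61.9, and 63.9 to 140.2, 137, and 149 CPM, Prelp, a leucine-rich proteoglycan, from 16.9, 17.7, and 16.9 to 38.3, 34.2, and 36.2 CPM, and Ccn2, connective tissue growth factor, from 12.3, 13.8, and 13.5 to 30.3, 26.9, and 23.3 CPM. Ccn2 and Ccn5, relatives of the CCN family, therefore moved apart. IL-4/13 without Inf downregulated 14 members of this list and upregulated 3 (2.57% and 2.78% of all tested genes).

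Matrix proteases and their inhibitors were divided evenly, with 12 of 46 tested members up and 12 down. Plau, the urokinase-type plasminogen activator, rose from 5.91, 7.94, and 6.43 to 16.1, 17.5, and 21.2 CPM, and Mmp12, the macrophage elastase, from 10.4, 7.89, and 6.61 to 20.04, 20.7, and 23.7 CPM. Adamts1, which cleaves proteoglycans, had 81.7, 81.3, and 71.5 CPM in Inf against 130, 142, and 136 CPM in IL-4/13 + Inf (log2 fold change 0.80, SE 0.06, adjusted p = 3.8e-10, edgeR). All were higher in every IL-4/13 + Inf library, which the rule for naming them required. Mmp2, a gelatinase, fell from 541, 497, and 471 to 379.7, 383, and 385 CPM and Mmp3, stromelysin-1, from 1479, 1343, and 1302 to 1084, 1025, and 1183 CPM, whereas Mmp13, a collagenase, overlapped (log2 fold change 0.16, SE 0.06, adjusted p = 0.056, edgeR). Inhibitors were also divided. Timp1 rose from 380.4, 375, and 392 to 506, 505, and 520.2 CPM, and Timp3 and the membrane-anchored inhibitor Reck fell (log2 fold changes −0.67 and −0.78), as did the protease Adam12 (−0.56).

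Of 46 tested integrins, laminins, and adhesion molecules, 4 rose and 5 fell, a share (19.6%) not far from the 14.6% of all tested genes. Itgb5, a vitronectin receptor subunit, had 422, 413, and 407 CPM in Inf against 688, 672, and 679.7 CPM in IL-4/13 + Inf (log2 fold change 0.71, SE 0.04, adjusted p = 4.3e-15, edgeR), and Itgb3, a relative with the same alpha partner, rose with a log2 fold change of 0.37. Alcam, an adhesion molecule that binds CD6 on T cells, rose from 75.1, 76.4, and 74.7 to 127, 126, and 133 CPM. The heparan sulfate proteoglycans Sdc1 (−0.42) and Sdc4 (−0.28) and the integrin-like Itgbl1 (−1.12) fell, and Vcam1, the leukocyte adhesion molecule, was not called (−0.16). Of 30 contractile and myofibroblast genes, 1 rose and 0 fell, a share (3.3%) below the 14.6% of all tested genes. The rise was in Pdlim5, a cytoskeletal adaptor, with 298, 324, and 292 CPM in Inf against 495, 494, and 507 CPM in IL-4/13 + Inf. Acta2, the smooth muscle actin that marks myofibroblasts, was at 927, 993, and 1066 CPM in Inf against 909, 878, and 867 CPM in IL-4/13 + Inf (log2 fold change −0.17, SE 0.04, adjusted p = 0.0029, edgeR), and the list summed to 11300, 11600, and 11260 CPM in Inf against 11310, 11280, and 11060 CPM in IL-4/13 + Inf. Against control, Inf had downregulated 16 of these genes and upregulated 2 (15.3% and 16.3% of all tested genes) in a comparison with the same Inf libraries.

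Growth factor pathways contained strong single responders. In the TGF-β, activin, and BMP pathway, 6 of 45 tested genes rose and 10 fell. Inhbb, a subunit of activin B, rose from 26.8, 30.9, and 29.2 to 43.1, 44.5, and 41.8 CPM. The inhibitors of differentiation Id2 and Id3, targets of BMP signalling, parted, with 7.84, 7.94, and 9.88 CPM in Inf against 15.5, 13.2, and 16.9 CPM in IL-4/13 + Inf for Id2 and 114, 113, and 138 and 87.9, 82.97, and 79.1 CPM for Id3. Adjusted p was 7.2e-06 for Id2 and 4.6e-07 for Id3 (edgeR), and the rule for naming required both to be called without overlap. Their interactions were called in opposite directions (1.12 and −0.42). Smad6, an inhibitory SMAD, fell (−0.73). Without IL-4/13 + Inf replicate 3, 6 members of this pathway fell. In the Wnt pathway, 2 of 30 tested genes rose and 5 fell, against 7.55% and 7.00% of all tested genes. Among them were the receptor Fzd4 (0.67), the enhancer Rspo3 (0.40), the transcription factors Lef1 (−0.56) and Tcf7l1 (−0.44), and Porcn, which acylates Wnt ligands (−0.49). The call of Rspo3 was lost in 11 and that of Porcn in 8 of 20 alternatives other than thresholds, DESeq2 and the replicate block among them.

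Genes of the insulin-like growth factor axis rose in 6 of 16 tested cases and fell in 3. Igfbp3, a binding protein, had 44.9, 42.2, and 44.7 CPM in Inf against 106, 106, and 104 CPM in IL-4/13 + Inf (log2 fold change 1.27, SE 0.06, adjusted p = 7.2e-16, edgeR). Irs1, the adaptor of insulin and IGF receptors, rose from 16.3, 19.8, and 17.5 to 26.1, 27.2, and 25.2 CPM, and Igf1 itself from 7.51, 7.79, and 6.18 to 10.2, 9.50, and 8.77 CPM. Igf1 and Irs1 stood at means of 32.3 and 37.4 CPM in control. Igfbp7 fell from 815, 709, and 833 to 561, 564, and 596 CPM, and the stanniocalcins parted, with a log2 fold change of 0.68 for Stc2 and −0.68 for Stc1.

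Of 46 angiogenic, fibroblast, epidermal, and nerve growth factors and receptors, 10 rose and 12 fell. Flt1, a receptor and decoy for VEGF, had 28.6, 31.7, and 23.9 CPM in Inf against 71.7, 79.8, and 68.6 CPM in IL-4/13 + Inf (log2 fold change 1.38, SE 0.09, adjusted p = 5.9e-12, edgeR), and Hbegf, a ligand of the EGF receptor, had 17.9, 16.5, and 18.1 and 40.02, 40.1, and 36.98 CPM. Ptn, the growth factor pleiotrophin, fell from 678, 579, and 631 to 310.3, 319, and 351 CPM. Pdgfra, the PDGF receptor that marks fibroblasts, had 424, 388, and 342 CPM in Inf against 209, 225, and 240.5 CPM in IL-4/13 + Inf (log2 fold change −0.78, SE 0.07, adjusted p = 1.2e-07, edgeR). In the absence of Inf, Pdgfra was at 198, 193, and 197 CPM in control and 233, 220.2, and 246 CPM with IL-4/13. The response to IL-4/13 differed with Inf by −1.02 on the log2 scale (SE 0.09, adjusted p = 2.6e-06, edgeR), and the level with all cytokines was near that with IL-4/13 alone.

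Axon guidance genes, which also act in the migration of other cells, were downregulated in 13 of 46 tested cases and upregulated in 6. Sema3a, a secreted semaphorin that repels sensory nerve fibres, had 17.3, 19.7, and 19.4 CPM in Inf against 52.7, 55.3, and 47.5 CPM in IL-4/13 + Inf (log2 fold change 1.46, SE 0.07, adjusted p = 4.2e-16, edgeR). Its libraries were at 83.5, 88.9, and 89.1 CPM in control and 104, 99.8, and 99.97 CPM with IL-4/13, so the level with Inf was the lowest of the 4 conditions, and the interaction was 1.25 (SE 0.09, adjusted p = 1.5e-10, edgeR). Sema7a and Plxna2, a receptor of class 3 semaphorins, rose from 5.52, 8.04, and 6.91 to 12.3, 13.1, and 11.4 CPM and from 20.6, 19.3, and 15.5 to 31.2, 32.2, and 34.9 CPM. The transmembrane semaphorins Sema4g (−0.71), Sema6a (−0.86), and Sema6d (−0.64) fell. Inf had downregulated 23 members of this list and upregulated 9 against control, with the same Inf libraries, and these shares were 15.3% and 16.3% over all tested genes.

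Early response factors changed modestly, with 4 of 33 tested members up and 4 down (24.2% together, against 14.6% of all tested genes). Myc, a transcription factor that drives growth, had 138, 145, and 149 CPM in Inf against 179, 181, and 176 CPM in IL-4/13 + Inf (log2 fold change 0.31, SE 0.05, adjusted p = 6.5e-06, edgeR). Atf3 and the nuclear receptor Nr4a1 rose with log2 fold changes of 0.52 and 0.31, and Ets2, Maf, and Runx1 fell (−0.51, −0.84, and −0.28). Without Inf replicate 1 or without IL-4/13 + Inf replicate 2, 2 members rose. Among 16 tested MAP kinase phosphatases and Sprouty genes, Dusp6 rose (0.47), and Dusp1 (−0.31) and Spry1 (−0.41) fell. This share (18.8%) was not far from the 14.6% of all tested genes.

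Genes of cell division rose together, each by a small amount. Of 55 tested genes of DNA replication and S phase, 26 were upregulated and 0 downregulated (median log2 fold change 0.23, against −0.01 for all tested genes), and 53 of the 55 had a positive fold change. Of 71 tested genes of mitosis and G2/M, 32 were upregulated and 0 downregulated (median 0.24), and 70 had a positive fold change. In 43 of the replication genes and 59 of the mitosis genes, all IL-4/13 + Inf libraries lay above all Inf libraries, which was so for 18.3% of all tested genes. Summed over the lists, replication genes were at 3388, 3545, and 3530 CPM in Inf against 4174, 4191, and 4121 CPM in IL-4/13 + Inf, and mitosis genes at 5272, 5569, and 5385 CPM and 6407, 6472, and 6348 CPM. The genes of a list share libraries and are not independent of one another.

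Mybl2, a transcription factor of the S and G2 phases, had 21.7, 23.5, and 21.8 CPM in Inf against 33.6, 33.9, and 33.3 CPM in IL-4/13 + Inf (log2 fold change 0.59, SE 0.07, adjusted p = 3.2e-07, edgeR). Mcm2, a subunit of the replicative helicase, had 168, 171, and 173 and 210.1, 209, and 205 CPM (log2 fold change 0.29, SE 0.04, adjusted p = 5.6e-06, edgeR), and Hmmr, a spindle protein, had 57.5, 61.6, and 56.1 and 79.7, 79.4, and 79.3 CPM. In each of them the 3 IL-4/13 + Inf libraries were tightly grouped above the Inf libraries. The rule for naming required the lack of overlap of Mybl2 and Hmmr, but not of Mcm2. E2f8 and E2f2, transcription factors of the cycle, and Fen1, a flap endonuclease, rose with log2 fold changes of 0.55, 0.51, and 0.52, and the kinetochore gene Cenpi with 0.38. Mki67, the proliferation marker Ki-67, was not called, and its Inf libraries spread widely (181, 196, and 143 CPM in Inf against 190.5, 209.6, and 188 CPM in IL-4/13 + Inf).

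These genes had been lower with Inf than without it. Against control, where Inf downregulated 15.3% and upregulated 16.3% of all tested genes, it downregulated 40 of the replication genes and upregulated 1, and downregulated 50 of the mitosis genes and upregulated 0, in a comparison that shares its Inf libraries with the one above. IL-4/13 without Inf upregulated 4 replication genes and 7 mitosis genes and downregulated 0 of either (2.78% and 2.57% of all tested genes). The interaction was called, with the higher response under Inf, for 3 replication genes and 1 mitosis gene, against 1.52% of all tested genes. For most members a dependence on Inf was thus not shown. The counts of rises were 22 to 29 for replication and 24 to 35 for mitosis when single libraries were left out, and beyond a log2 fold change of 0.5 they were 3 and 1.

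Regulators of the cycle were divided, with 5 of 33 tested members up and 6 down. Ccnd1, the G1 cyclin that growth factors induce, had 242, 265, and 236 CPM in Inf against 353, 359, and 332 CPM in IL-4/13 + Inf (log2 fold change 0.49, SE 0.04, adjusted p = 1.0e-09, edgeR), and Cdk6, its kinase partner, had 104, 111, and 102 and 131, 138, and 142 CPM. The control and IL-4/13 libraries were at means of 688 and 708 CPM for Ccnd1, and the interaction was called (0.45, adjusted p = 2.0e-05, edgeR). Among the falls were Gadd45a, a growth arrest gene (log2 fold change −0.53), Mxd1, an antagonist of MYC (−0.51), and Ccng2, an atypical cyclin of resting cells (−0.45). Cdkn1a, which encodes the p21 inhibitor, was not called (194, 213, and 208 CPM in Inf against 194, 187, and 179.5 CPM in IL-4/13 + Inf).

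The unfolded protein and integrated stress response contained 13 rises and 3 falls among 46 tested genes (median log2 fold change 0.18). Hspa5, the main chaperone of the endoplasmic reticulum, had 792, 826, and 829 CPM in Inf against 1036, 1017, and 1022 CPM in IL-4/13 + Inf (log2 fold change 0.33, SE 0.04, adjusted p = 8.8e-08, edgeR). Slc7a5, a transporter of large neutral amino acids, had 164, 175, and 175 CPM in Inf against 234, 237, and 222 CPM in IL-4/13 + Inf (log2 fold change 0.43, SE 0.05, adjusted p = 3.4e-08, edgeR), Shmt2, the mitochondrial serine hydroxymethyltransferase, had 218, 230, and 225 and 303, 304, and 296 CPM, and Cth, which makes cysteine, had 73.2, 77.6, and 80.8 and 115, 109, and 114 CPM. No library of one condition reached the range of the other in these 4 genes, which the rule for naming required of all but Hspa5. Psat1 and Psph of serine synthesis and Mthfd2 of the folate cycle, singled out after their values were seen, had log2 fold changes of 0.34, 0.38, and 0.34. Ddit3, which encodes the stress factor CHOP, was not called (29.1, 27.6, and 33.8 CPM in Inf against 27.6, 27.4, and 29.4 CPM in IL-4/13 + Inf), and Cebpb, a C/EBP factor that also drives acute phase genes, fell from 64, 53.5, and 71.2 to 42.4, 45.98, and 42.2 CPM. The other falls were in the cystine transporter Slc7a11 (−0.41) and the lipoprotein receptor Vldlr (−0.26).

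For part of this group the response depended on Inf. IL-4/13 without Inf upregulated 0 of the 46 genes and downregulated 7 (2.78% and 2.57% of all tested genes). The interaction was called for 12 genes, all with the higher response under Inf, against 1.52% of all tested genes. For Slc7a5, the means were 453 CPM in control and 365 CPM with IL-4/13 alone, a fall, and the interaction was 0.74 (SE 0.07, adjusted p = 7.1e-09, edgeR). It was 0.47 for Cth and 0.47 for Shmt2. Against control, Inf had downregulated 20 members and upregulated 4 (15.3% and 16.3% of all tested genes), in a comparison with the same Inf libraries. Summed over the list, the level was 9684, 9998, and 10110 CPM in Inf against 11450, 11330, and 11350 CPM in IL-4/13 + Inf.

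Glycolysis and hypoxia genes fell, with 18 of 39 tested members downregulated and 0 upregulated (median log2 fold change −0.225). Pdk2, a kinase that limits pyruvate oxidation, had 7.04, 8.67, and 8.24 CPM in Inf against 4.91, 4.38, and 5.80 CPM in IL-4/13 + Inf (log2 fold change −0.68, SE 0.15, adjusted p = 0.0012, edgeR). Ndrg1 and Ankrd37, hypoxia-inducible genes, fell from 8.11, 11.6, and 10.2 to 5.75, 7.25, and 6.01 CPM and from 6.85, 9.64, and 8.73 to 5.70, 4.55, and 5.47 CPM. Hif1a, the oxygen-regulated transcription factor, was singled out after its values were seen, with 701, 726, and 699 CPM in Inf against 529.8, 531, and 565 CPM in IL-4/13 + Inf (log2 fold change −0.39, SE 0.04, adjusted p = 4.0e-08, edgeR). Ldha, Slc2a1, and Pkm, also added after their values were seen, were not called, with log2 fold changes of −0.12, −0.03, and −0.14. The list summed to 15430, 15500, and 15650 CPM in Inf against 13920, 13700, and 13890 CPM in IL-4/13 + Inf. Against control, Inf had upregulated 30 members and downregulated 1 (16.3% and 15.3% of all tested genes) with the same Inf libraries. IL-4/13 without Inf upregulated 1 and downregulated 0 (2.78% and 2.57% of all tested genes). The interaction was called with the lower response under Inf for 5 members (1.59% of all tested genes). Nuclear genes of the respiratory chain and ATP synthase were nearly all not called, with 2 of 83 down and 0 up, of which Ndufv3 had 80.5, 77.6, and 85.3 CPM in Inf against 58.3, 58.7, and 58.8 CPM in IL-4/13 + Inf. Without Inf replicate 2 the count of falls was 8, and without IL-4/13 + Inf replicate 3 it was 4.

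**Figure D4:**
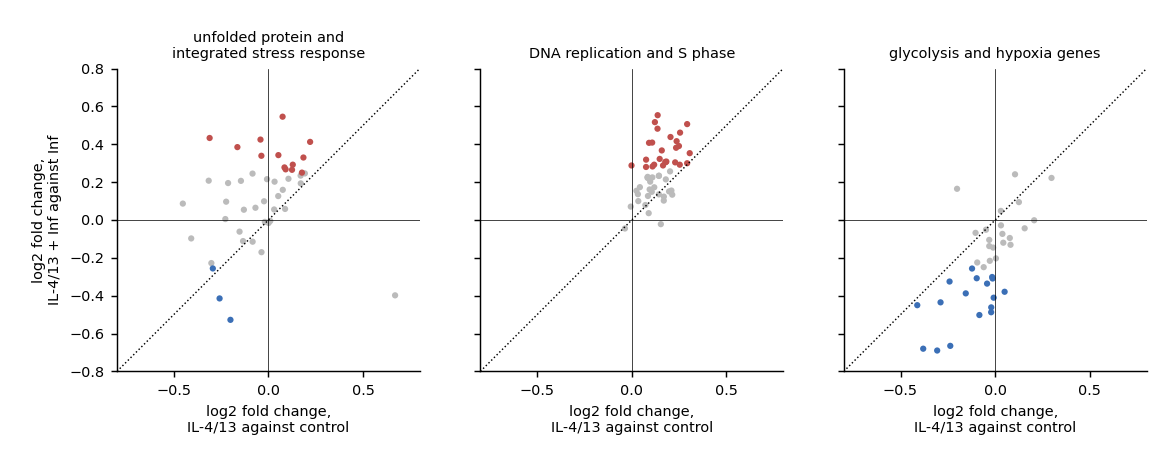
Log2 fold change of IL-4/13 + Inf against Inf (vertical) plotted against that of IL-4/13 against control (horizontal), with 1 point per tested gene in 3 function lists and a diagonal line where both responses are equal. In the unfolded protein and integrated stress response 38 of 46 genes lie above the line, in DNA replication 46 of 55 lie above it, and in glycolysis and hypoxia genes 35 of 39 lie below it (1 of them, at −2.53, is outside the axes). The interaction was called for 12, 3, and 5 members of these lists in this order. Members of a list share libraries, and the share of all tested genes on each side of the line was not computed.

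Targets of NRF2, the factor that turns on antioxidant genes, fell in 15 of 49 tested cases and rose in 1. Hmox1, heme oxygenase 1, had 238, 228, and 243 CPM in Inf against 130.2, 124, and 131 CPM in IL-4/13 + Inf (log2 fold change −0.88, SE 0.05, adjusted p = 1.3e-14, edgeR), Nqo1, a quinone reductase, had 77.6, 75.6, and 80.2 and 56.2, 52.7, and 55.7 CPM, and Mgst3, a microsomal glutathione transferase, had 22.3, 21.8, and 27.04 and 12.5, 12.4, and 13.5 CPM. Akr1c18, an aldo-keto reductase, fell by 0.92 on the log2 scale. The one rise was in Gstm1, a cytosolic glutathione transferase with close relatives, from 124, 116, and 125 to 187, 179.8, and 204 CPM. The means of Hmox1 were 140.5 CPM in control and 105 CPM with IL-4/13 alone, and the interactions were −0.46 for Hmox1 and −0.34 for Nqo1 (adjusted p = 6.3e-05 and 0.017, edgeR). The interaction was called with the lower response under Inf for 7 members and with the higher for 1 (1.59% and 1.52% of all tested genes).

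Metallothionein and iron genes fell in 7 of 32 tested cases and rose in 1 (25.0% together, against 14.6% of all tested genes). Mt1, a metal-binding protein, had 302, 282, and 319 CPM in Inf against 173, 174, and 192 CPM in IL-4/13 + Inf (log2 fold change −0.74, SE 0.05, adjusted p = 1.3e-11, edgeR). The iron importer and exporter moved in opposite directions. Tfrc, the transferrin receptor, rose from 227, 232, and 224 to 275, 281, and 278 CPM, and Slc40a1, the exporter ferroportin, fell from 7.51, 9.06, and 6.55 to 4.12, 5.23, and 4.45 CPM. The list summed to 11120, 10470, and 10700 CPM in Inf against 8594, 8470, and 8807 CPM in IL-4/13 + Inf.

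**Figure D5:**
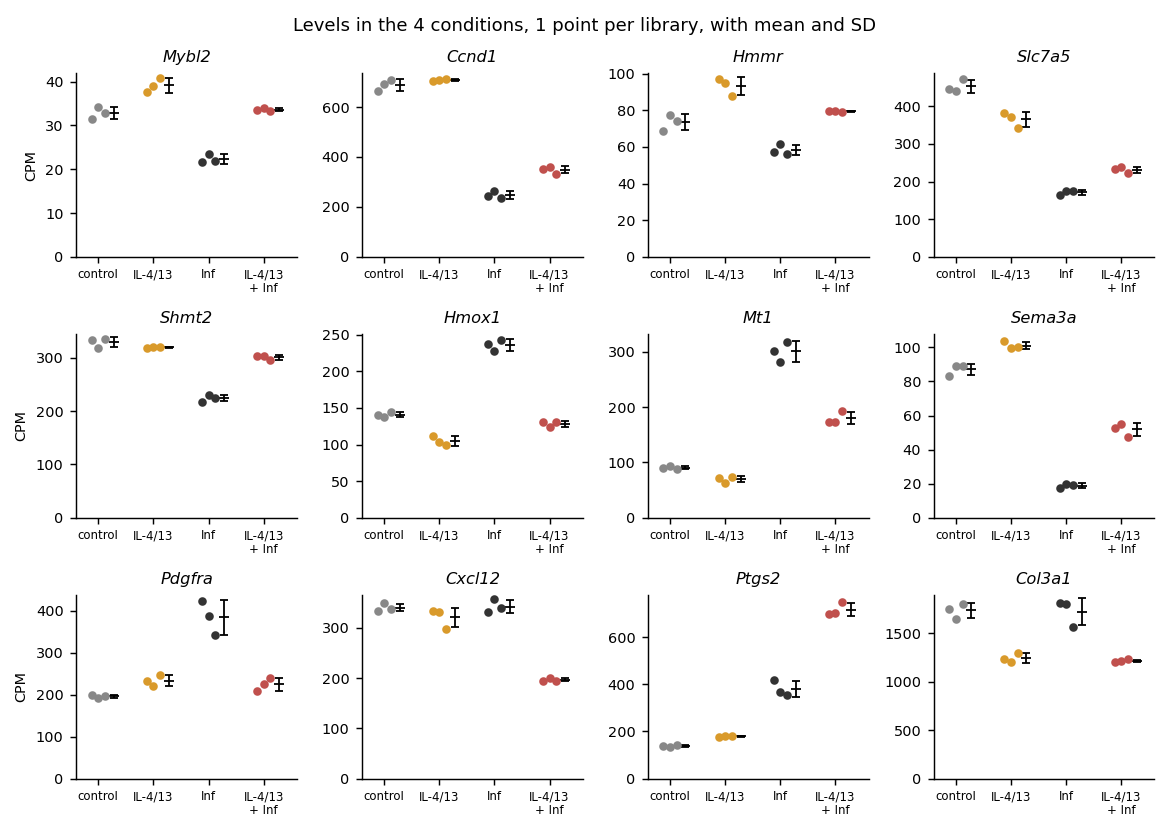
CPM of 12 genes in the 4 conditions, with 1 point per library and the mean with its SD (n = 3) beside the points. Mybl2, Ccnd1, Slc7a5, Shmt2, and Sema3a have their lowest level in Inf and a higher one in IL-4/13 + Inf, Hmox1, Mt1, and Pdgfra have their highest level in Inf, and Ptgs2 has its highest level in IL-4/13 + Inf.

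Of 28 tested genes of sterol synthesis and uptake, 0 rose and 3 fell, among them Mylip, an E3 ubiquitin ligase (log2 fold change −0.52), Tm7sf2 (−0.42), and Insig2 (−0.25). Of 21 genes of fatty acid synthesis and desaturation, 1 fell (Acss2, −0.36) and 0 rose. The share called was 10.7% for the sterol list and 4.8% for the fatty acid list, against 14.6% of all tested genes. Of 39 genes of lipid transport, esterases, and retinoid enzymes, 7 rose and 9 fell. Besides Ces1g and Abca4, Lipg, an endothelial-type lipase, rose from 14.8, 11.8, and 11.8 to 32.3, 29.01, and 30.8 CPM. Besides Abca1, Cyp7b1, which metabolizes oxysterols, fell from 48.8, 47.7, and 46.9 to 30.4, 30.8, and 34.5 CPM. Without IL-4/13 + Inf replicate 1 or replicate 2, 5 members of this list fell.

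Although 3T3-L1 cells can become adipocytes, Adipoq had at most 1 count in any library. Of 31 tested adipogenic regulators and markers, 1 rose and 8 fell. Pparg, the master regulator of adipogenesis, rose from 6.65, 8.96, and 7.52 to 10.2, 10.6, and 11.5 CPM, while Fabp4, a fatty acid carrier, fell from 29.4, 28.7, and 32.2 to 19.5, 17.4, and 21.3 CPM and Plin4, a lipid droplet protein, from 8.71, 10.3, and 8.12 to 5.85, 4.83, and 5.06 CPM. The sum of 6 adipocyte markers, in which Fabp4 was the one marker tested, was 28.7 to 32.2 CPM in Inf against 17.4 to 21.3 CPM in IL-4/13 + Inf.

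Clock genes rose in 4 of 22 tested cases and fell in 4 (36.4% together, against 14.6% of all tested genes). Nfil3, a transcriptional repressor tied to the clock, had 54.5, 54.2, and 52.6 CPM in Inf against 78.2, 84.9, and 81.9 CPM in IL-4/13 + Inf (log2 fold change 0.60, SE 0.06, adjusted p = 1.1e-08, edgeR). Hlf (0.74) and Nr1d1 (0.35) rose, and Rora (−0.40), Cry2 (−0.33), and Bhlhe41 (−0.56) fell. Leaving out single libraries lowered either count to 2. Cytosolic ribosomal proteins were nearly all not called, with 0 of 75 up and 2 down, namely Rpl37a (−0.34) and Rpl5 (−0.34), both known to have many pseudogenes. The count of falls depended on single libraries. It was 15 without Inf replicate 2, 4 without control replicate 2, 1 without IL-4/13 + Inf replicate 2, and 0 without Inf replicate 1 or 3 or without IL-4/13 + Inf replicate 1. Without Inf replicate 3, 2 ribosomal protein genes rose. Summed over the 75 tested genes, the level was 19890, 18930, and 21790 CPM in Inf against 19220, 19120, and 19180 CPM in IL-4/13 + Inf.

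A few genes were at or near the limit of detection in one condition. Sprr1a, a protein of the cornified envelope of keratinocytes, had 2, 3, and 3 counts in the Inf libraries and 30, 29, and 40 counts in the IL-4/13 + Inf libraries. The pseudogene Sprr2j-ps of the same family had 1, 2, and 2 counts in Inf and 31, 35, and 27 counts in IL-4/13 + Inf. Serpina3c had 0, 3, and 3 counts in Inf and 32, 38, and 29 counts in IL-4/13 + Inf. Each was called, and no fold is given because 3 or fewer counts fix the lower level poorly. Sprr1a was not near the limit without Inf, with 46, 37, and 25 counts in control and 77, 111, and 88 counts with IL-4/13. Skint7 and the gene model Gm43431 had 2 or fewer counts in each Inf library and 4 to 17 counts in the IL-4/13 + Inf libraries. Tnr, which encodes the matrix protein tenascin-R, had 10, 11, and 8 counts in Inf and 3, 3, and 0 counts in IL-4/13 + Inf.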

How the data were processed

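Bulk RNA-seq of 12 libraries of 3T3-L1 cells was used, of which the 3 Inf and 3 IL-4/13 + Inf libraries were compared. The authors isolated RNA, prepared stranded mRNA libraries by poly(A) selection, and counted reads per gene, and the values they deposited are raw counts, not normalized. The submitters' processing notes name STAR, featureCounts, and GRCm39, and how multi-mapped reads and strand were handled is not given in the sources used here. Of 56941 genes in the table, 29236 had a count. For 19511 of 23268 rows that lack a symbol, one was found in a separate gene name table.

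The analysis used R 4.3.3, edgeR 4.0.16, DESeq2 1.42.0, Python 3.11.15, pandas 2.3.3, and matplotlib 3.10.9. Genes were filtered with filterByExpr by condition (minimum count 10, minimum total 15), scaled by TMM, and fitted with robust quasi-likelihood over all 12 libraries, with 1 term per condition. Contrasts were IL-4/13 + Inf against Inf, IL-4/13 against control, Inf against control, and the interaction, each with Benjamini-Hochberg adjustment over 14810 genes. SE is the log2 fold change divided by the root of F. CPM use tested-gene totals times TMM factors. Counts per library ranged from 13446005 to 20775769, and 3 counts were taken as the floor of detection. Recovery of known changes was tested on simulated counts, and no result of that test is given here.

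The comparison, the function lists, and the key genes were chosen with earlier results of these data known. Genes named were the 12 largest rises and falls, up to 3 rises and 3 falls per function list, the key genes, and genes at 3 or fewer counts in 1 condition, and 9 others are named as chosen after their values were seen. Some genes that the rule picked are not reported here. Alternatives were DESeq2, other scalings, other filters, the 6 libraries alone, a replicate block, each library left out, and other thresholds. RefSeq promoters (GRCm38.p6) matched 67.1% of tested genes, below the 80% that a comparison between groups would need, so motif shares of called genes are not given. Other data of the study were not analysed here.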

Additional observations from a re-analysis of the deposited data

Results flagged for a closer look

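The response to IL-4/13 differed with Inf for 67 of the 228 genes named above, by the interaction in the edgeR fit (adjusted p below 0.05 and a difference beyond 0.25). Over all tested genes, 3.11% were called in this way. Most of the named genes were picked for a large change in IL-4/13 + Inf against Inf, which is part of the interaction. Their share is therefore not comparable with that of all tested genes. Values are the log2 response with Inf minus the log2 response without Inf. A lower response can be a smaller rise, as in C3 (2.84 without Inf and 0.72 with it). It can also be a larger fall, as in Ccn5 (−0.89 without Inf and −1.64 with it). A higher response can be a larger rise or a smaller fall, as in Spry1.

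The response was higher with Inf for 30 genes. The larger differences were in Blnk (4.09), Sprr1a (2.11), Sema3a (1.25), Id2 (1.12), Prelp (0.95), Gstm1 (0.93), Slc7a5 (0.74), Adamts1 (0.64), Lipg (0.60), and Sema7a (0.60). Smaller ones were in Hbegf (0.56), Psph (0.55), Plxna2 (0.54), Ptgs2 (0.53), Srpx2 (0.50), Spry1 (0.50), Cth (0.47), Shmt2 (0.47), Alcam (0.46), Ccnd1 (0.45), Itgb5 (0.45), E2f8 (0.42), Srm (0.40), Nr4a1 (0.39), Mthfd2 (0.38), Pdlim5 (0.37), Ifit2 (0.35), Tnfrsf12a (0.33), Psat1 (0.29), and Mcm2 (0.29).

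The response was lower with Inf for 37 genes. The larger differences were in Lbp (−3.55), Serpina3h (−3.54), Serpina3g (−2.79), Il13ra2 (−2.17), C3 (−2.12), Tnip3 (−1.74), Hlf (−1.67), Fabp4 (−1.14), Slc7a2 (−1.04), Abca1 (−1.02), and Pdgfra (−1.02). Differences of intermediate size were in Bcl3 (−0.98), Pid1 (−0.95), Ptgfr (−0.75), Ccn5 (−0.75), Cxcl12 (−0.72), Angpt1 (−0.65), Prss23 (−0.63), Tnfaip3 (−0.63), Il1rap (−0.62), Cyp7b1 (−0.61), Stc1 (−0.53), and Slc22a23 (−0.51). Smaller ones were in Osmr (−0.46), Hmox1 (−0.46), Nfkbia (−0.45), Postn (−0.42), Id3 (−0.42), Ccng2 (−0.40), Mt1 (−0.37), Mmp2 (−0.36), Ets2 (−0.34), Nqo1 (−0.34), Il4ra (−0.33), Nfkb1 (−0.32), Sdc1 (−0.30), and Il13ra1 (−0.28). In 1 condition each, Blnk, Sprr1a, Serpina3h, and Lbp had 3 or fewer counts in every library, so their fitted differences depend on the prior count and are no bound.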

How the results depend on the processing

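Counts of upregulated and downregulated genes were 1083 and 947 with DESeq2, 1133 and 1029 with DESeq2's size factors, 1099 and 1055 with library size alone, 1185 and 1045 without a filter, 913 and 1057 with a mean of at least 50 counts, and 1073 and 992 in a fit of the 6 compared libraries. The fold threshold moved them most. At thresholds of 0, 0.5, and 1, 1818, 350, and 133 genes were upregulated, at 0.5 and 1, 404 and 105 were downregulated, 179 and 59 list genes were called, and 38 and 15 named genes had a called interaction, against 418 list genes and 67 interactions as reported. At an adjusted p of 0.01, 904 genes rose and 723 fell. No called gene had the opposite sign in any of these alternatives. Leaving out single libraries gave 977 to 1189 upregulated genes, 821 to 1092 downregulated genes, 373 to 427 list genes, and 59 to 76 interactions.

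Of 207 named genes called in IL-4/13 + Inf against Inf, 179 kept the call under every alternative other than thresholds that tested them (17 to 20 for each gene). The other 28 were Acss2, Atf3, Bhlhe41, Casp12, Clcf1, Col6a3, Dusp1, E2f2, Fen1, Igf1, Insig2, Nr1d1, Pim1, Porcn, Ptgis, Rpl37a, Rpl5, Rspo3, Sdc4, Smad6, Smox, Tap1, Tnfrsf12a, Tnfrsf21, Tnr, Traf1, Tslp, and Vldlr, each of which lost it without at least 1 Inf or IL-4/13 + Inf library and kept its direction, and the cause was not tested. Of these, 11 also lost it under an alternative that omits no library, and Rspo3, Porcn, Insig2, Rpl5, and Tslp lost it with DESeq2. Losses were most frequent for Col6a3 (13 alternatives), Rspo3 and Tslp (11 each), and Rpl5 (9). Among list counts, the falls of glycolysis and hypoxia genes ranged from 16 to 19, those of NRF2 targets from 13 to 16, and the rises of the unfolded protein and integrated stress response from 11 to 14 when single libraries were left out. Beyond 0.5 on the log2 scale there were 5, 6, and 1. In lists with 4 or fewer calls in a direction, 1 library often changed the count by 1 or 2 genes.

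A replicate block gave 1090 upregulated and 979 downregulated genes over 12 libraries, and 1040 and 968 over the 6 compared. Correlations of same-numbered libraries were −0.07, −0.01, and 0.05, within the −0.11 to 0.13 of other pairs. No shift shared by replicate number was thus seen, but the correlations cannot tell whether same-numbered samples were handled together. The alternative on motif shares was not run because too few promoters matched. Depth limits genes below about 10 counts per library, and 3 libraries per condition limit small folds.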
